A study of Mus musculus with 6 samples.

Results

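The genes of the mitochondrial genome were taken as every gene with counts listed on the chromosome MT, with the exonic parts summed per gene. The rule gave 37 of the 49644 genes counted, namely 13 protein genes, 2 rRNA genes and 22 tRNA genes. RNA-seq had been performed on mouse 2-cell embryos, with 3 control libraries and 3 delipidated libraries, to ask how the embryo responds to the loss of its lipid droplets. All embryos were given as wt F1 (C57Bl/10 X CBA/H), and by the authors' methods F1 females had been mated with F1 males. The embryos were cultured in vitro from the zygote, from 0.5 to 2.0 dpc, in KSOM free of fatty acids, and collected on day 2. For delipidation, zygotes in 50 µg/mL cytochalasin B were spun at 4200 g for 10 min and, after sucrose at 50 µg/mL had been added, at 9500 g for 10 min. The separated droplets were then drawn through a laser-made opening of the zona into a pipette of 12 µm. The labels describe no mock treatment of control zygotes, so lipid removal cannot be told apart from the spins, the cytochalasin B or the biopsy. Each library was a pool of 3 embryos, and the embryos of both groups came from a common pool of zygotes, so p-values measure the spread between pools and not between litters.

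The mitochondrial genome encodes core subunits of the respiratory chain and of ATP synthase, together with the rRNAs and tRNAs needed to translate them. It is transcribed from both strands as long precursor RNAs that are cut mainly at the tRNA genes lying between the other genes. The mitochondria of the early embryo are inherited from the oocyte.

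Total counts were 12480952, 16582054 and 13318885 in control replicates 1 to 3 and 20571131, 16762489 and 15066302 in delipidated replicates 1 to 3. Values below follow this order of libraries. Genes with at least 1 count numbered 22855, 22437 and 20582 in the control and 17091, 19408 and 20158 in the delipidated libraries, so every delipidated library had fewer than every control, and delipidated replicate 1, the deepest library, had the fewest. Counts were given per exonic part, and a read appears to have been counted in each part it touched, a setting the labels do not state, so sums may exceed the number of reads. CPM are counts per 10⁶ counts of the genes tested, scaled by TMM, a normalization between libraries. Intervals quoted for shares cover counting error only.

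The libraries held the transcripts that define the stage. The 18 genes of 2-cell stage activation, all with counts, summed to 756, 388 and 749 CPM in the control and 537, 699 and 861 CPM in the delipidated libraries. Dub1a was the most abundant of them over all libraries together, but not in any control library. The 15 oocyte and maternal genes, led by Btg4, all had counts and summed to between 2894 and 4977 CPM. Of the 15 cumulus and granulosa markers, 13 had a count, and Foxl2 and Ptx3 were at 0 in every library. This list summed to 6.24, 10.4 and 69.0 CPM in the control and 2.47, 9.83 and 12.1 CPM in the delipidated libraries. Control replicate 3 had the highest sum, most of it from Cyp11a1, a steroid-producing enzyme with 653 counts there and between 0 and 4 elsewhere. Star, Vcan, Inhba and Fst were also highest in that library, at 6.23, 1.98, 1.52 and 0.304 CPM. All other markers of this list with a count were highest in another library. Cyp19a1 was highest in delipidated replicate 3, at 5.44 CPM against 2.28 in control replicate 3. Tnfaip6 was highest in delipidated replicate 2, at 6.76 CPM against 6.54 in control replicate 3. Amh, Inha, Has2, Ptgs2, Fshr and Lhcgr were the others. The 11 leukocyte markers, led by Coro1a and all with a count, summed to between 2.77 and 20.3 CPM. The 12 markers of stroma and oviduct, all with a count, summed to between 95.4 and 242 CPM, most of it from the epithelial adhesion gene Epcam.

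Mitochondrial genes took 3.66%, 3.63% and 4.94% of all counts in the control libraries. The share was 5.23%, 4.99% and 3.99% in the delipidated libraries, and no 95% Wilson interval was wider than 0.0233 percentage points. Control replicate 3 lay with the upper delipidated libraries and delipidated replicate 3 lay nearer the lower controls, so the groups overlapped. The means were 4.08% ± 0.746 (SD, n = 3) and 4.74% ± 0.660 (SD, n = 3), a difference smaller than the spread among controls (exact two-sided permutation p = 0.2, where 0.1 is the smallest that 3 libraries against 3 allow). The difference of 0.657 percentage points became 1.09 without control replicate 3, 1.03 without delipidated replicate 3, 0.435 without control replicate 2 and 0.411 without delipidated replicate 1. With the mitochondrial rRNA genes left out of the share it was 0.295 (exact two-sided permutation p = 0.4). In these pooled embryos, the number of mitochondria and the amount of RNA per mitochondrion cannot be told apart, in either direction. Control replicate 3, with the highest mitochondrial share among controls, was also the library with the highest sum of cumulus and granulosa markers, 49.6 of its 69.0 CPM being Cyp11a1. Cumulus cells had been removed with hyaluronidase before culture, and a part of remaining cells in the share was not tested.

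The library protocol included depletion of ribosomal RNA, so values of rRNA genes are those left after it, and its efficiency on mt-Rnr1 and mt-Rnr2 was not tested. Among the counts of mitochondrial genes, the 2 rRNA genes made up 65.2%, 62.2% and 58.3% in the control libraries. They made up 61.6%, 59.8% and 60.4% in the delipidated libraries. All 3 delipidated libraries lay inside the range of the controls (exact two-sided permutation p = 0.6). The difference of means, -1.27 percentage points, was -3.06 without control replicate 3 and 0.365 without control replicate 1. Protein genes took 31.9%, 34.7% and 38.6% in the control and 35.0%, 37.0% and 36.3% in the delipidated libraries. The tRNA genes took 2.94%, 3.08% and 3.10% in the control libraries. Their share was 3.39%, 3.20% and 3.25% in the delipidated libraries, where every library lay above every control library. A read appears to be counted in each part it touches, so this share may hold reads lying mostly in neighbouring genes. The part of such reads in the share was not tested. The tRNA means were 3.04% ± 0.0885 (SD, n = 3) and 3.28% ± 0.0968 (SD, n = 3), and the exact two-sided permutation p was 0.1, which no split of 3 against 3 can go below. The delipidated libraries were also those with fewer genes detected, and delipidated replicate 1, with the fewest, had the highest tRNA share and the highest mitochondrial share. A difference in library complexity or RNA quality cannot be told apart from delipidation here.

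**Figure D1:**
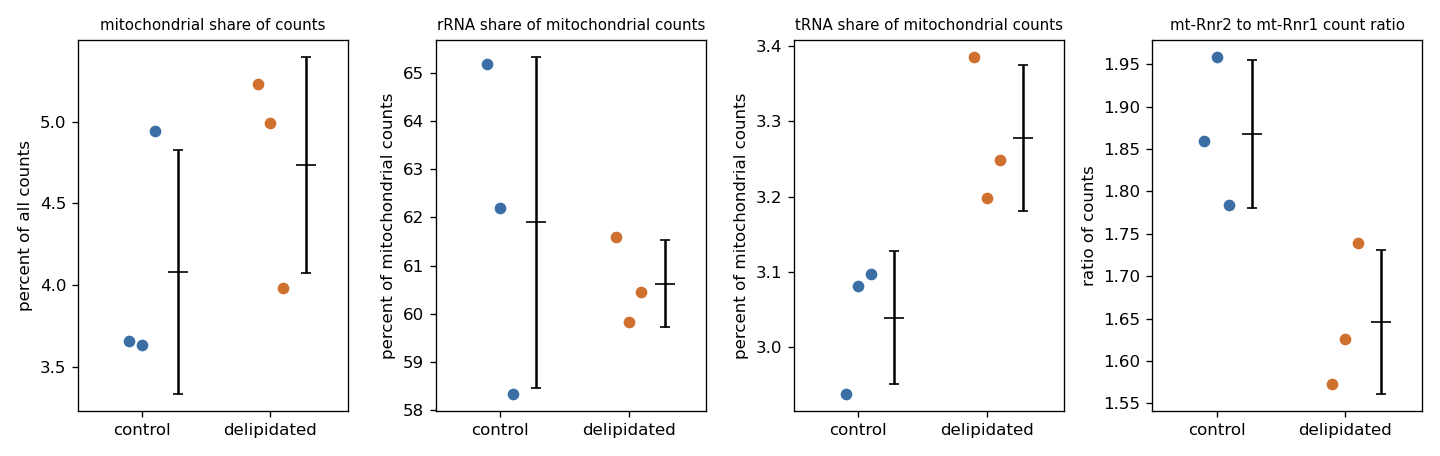
Points are libraries, 3 control and 3 delipidated, and black bars are means ± SD (n = 3) of the mitochondrial share of all counts, the rRNA and tRNA shares of mitochondrial counts (all in percent) and the ratio of mt-Rnr2 to mt-Rnr1 counts, with axes that do not start at 0. The groups overlap in the first and second panels, whereas all delipidated tRNA shares lie above 3.10% and all delipidated ratios lie below 1.78.

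Of the 37 genes, 33 passed the filter on low counts and were tested with edgeR's quasi-likelihood test in a fit over 16020 genes. A gene was called at a Benjamini-Hochberg adjusted p under 0.05 and a log2 fold change beyond 1. No mitochondrial gene was called higher or lower, 0 of 33, as was the case for 0% of all genes tested in each direction. DESeq2's Wald test, run on all genes with no filter, and limma-voom also called 0 mitochondrial genes, while DESeq2 called 49 of all 30967 genes, 9 higher and 40 lower. At an unadjusted p under 0.05, DESeq2 had 1 of 37 mitochondrial genes (4.35% of all genes) and limma-voom 4 of 33 (3.86%). At an unadjusted p under 0.05, edgeR had 2 of the 33 genes higher, against 1.15% of all genes tested, and 0 lower, against 1.74% (2.89% in either direction). The count in either direction was 11 of 33 without control replicate 3, where 383 of all 17435 genes had such a p, and 5 of 33 without delipidated replicate 3, where 993 of 17689 did. It was 0 when any other library was left out, where between 3.43% and 4.09% of all genes had such a p. In CPM, 3 of the 33 genes had all delipidated libraries above all control libraries, against 3.81% of all genes, and 0 had them all below, against 5.05%. The fold change was positive for 31 of the 33, against 50.0% of all genes tested, and the median log2 fold change was 0.24, against 0.00 over all genes. Without control replicate 3 this median was 0.40. Mitochondrial transcripts share precursors, so these genes are not independent of each other.

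The rRNA genes encode the RNA cores of the mitochondrial ribosome. mt-Rnr1, the small subunit rRNA at MT:70-1024, had 8766, 7637 and 10454 CPM in the control libraries. It had 12685, 11689 and 9332 CPM in the delipidated libraries. Delipidated replicate 3 lay below control replicate 3, so the groups overlapped, and the log2 fold change was 0.33 (standard error 0.14). The unadjusted p from edgeR's quasi-likelihood test was 0.0436 and the adjusted p was 1.00. mt-Rnr2, the large subunit rRNA at MT:1094-2675, had 16301, 14961 and 18655 CPM in the control libraries. It had 19943, 19000 and 16227 CPM in the delipidated libraries. These groups overlapped as well, with a log2 fold change of 0.14 (standard error 0.11, adjusted p from edgeR's quasi-likelihood test 1.00). For mt-Rnr2 this became 0.07 without control replicate 2, 0.08 without delipidated replicate 1, 0.23 without control replicate 3 and 0.22 without delipidated replicate 3.

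Counts of mt-Rnr2 were 1.86, 1.96 and 1.78 times those of mt-Rnr1 in the control libraries and 1.57, 1.63 and 1.74 times in the delipidated libraries. Every delipidated ratio lay below every control ratio. The delipidated libraries were also those with fewer genes detected, and delipidated replicate 1, with the fewest (17091), had the lowest ratio. A part of library complexity or RNA quality in the ratio was not tested. The ratio was examined after its values were seen, so it was given no test, and it holds for what remained after rRNA depletion. On the scale of counts per base, a count divided by the length of the gene, mt-Rnr2 exceeded mt-Rnr1 in all 3 control libraries. In delipidated replicates 1 and 2 the order was the other way, with 269 counts per base for mt-Rnr1 against 255 for mt-Rnr2 in replicate 1 and 199 against 196 in replicate 2. Over the 6 libraries the means were 165 ± 58.9 counts per base for mt-Rnr1 and 172 ± 47.4 for mt-Rnr2 (SD), the highest of the 37 genes and not apart beyond their spread.

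Of the 13 protein genes, which encode subunits of respiratory complexes I, III and IV and of ATP synthase (complex V), 11 were tested. Their log2 fold changes, 10 positive and 1 negative, had a median of 0.21, and 0 had an unadjusted p under 0.05. Summed over all 13, protein genes had 12265, 12622 and 19253 CPM in the control libraries. The sum was 18546, 18972 and 15354 CPM in the delipidated libraries. Control replicate 3 was the highest of the 6 libraries, and the groups overlapped (exact two-sided permutation p = 0.4). The difference of means, 2911 CPM, was 5181 CPM without control replicate 3, 1687 CPM without control replicate 1 and 1865 CPM without control replicate 2. It was 1748 CPM with mt-Cytb, the protein gene with the most counts, left out of the sum (exact two-sided permutation p = 0.4).

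Complex I oxidises NADH, and its 7 mitochondrial genes summed to 7173, 7284 and 11106 CPM in the control and 10404, 10726 and 9014 CPM in the delipidated libraries. mt-Nd5, which encodes a proton-pumping subunit, had 2916, 2802 and 4210 CPM in the control libraries. It had 4194, 4317 and 3613 CPM in the delipidated libraries. Control replicates 1 and 2 were low and the other libraries overlapped, at a log2 fold change of 0.29 (standard error 0.17), or 0.50 without control replicate 3 and 0.18 without control replicate 2. mt-Nd6, the only protein gene on the minus strand, overlaps mt-Nd5 over 14 bases. Its level was 771, 725 and 1090 CPM in the control and 1073, 1097 and 880 CPM in the delipidated libraries. The same controls were low and the groups overlapped (log2 fold change 0.24, standard error 0.19, or 0.44 without control replicate 3 and 0.13 without control replicate 2).

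mt-Nd1, a membrane subunit near the quinone site, had 1167, 1269 and 1998 CPM in the control and 1684, 1817 and 1569 CPM in the delipidated libraries. mt-Nd2 had 1271, 1363 and 2111 CPM in the control and 1959, 1879 and 1664 CPM in the delipidated libraries. mt-Nd4 had 1045, 1118 and 1692 CPM in the control and 1489, 1615 and 1281 CPM in the delipidated libraries. In each of these genes control replicate 3 was the highest library and control replicates 1 and 2 were the lowest. The log2 fold changes were 0.19 for mt-Nd1 (standard error 0.20), 0.21 for mt-Nd2 (standard error 0.19) and 0.19 for mt-Nd4 (standard error 0.20). Without control replicate 3 they were 0.47, 0.47 and 0.43, without control replicate 1 they were 0.06, 0.09 and 0.07, and without control replicate 2 they were 0.10, 0.12 and 0.10, while mt-Nd4 was at 0.11 without delipidated replicate 2. The remaining complex I genes had few counts. Controls 1 to 3 had 17, 64 and 39 counts of mt-Nd3, and delipidated libraries had 69, 14 and 57. Counts of mt-Nd4l were 15, 49 and 20 in the control and 41, 13 and 61 in the delipidated libraries. Delipidated replicate 2 was the lowest library for both, and the log2 fold changes, 0.00 and 0.31, carried standard errors of 0.97 and 1.07. With a library left out they lay between -0.37 (without delipidated replicate 3) and 0.43 (without delipidated replicate 2) for mt-Nd3 and between -0.44 (without delipidated replicate 3) and 0.77 (without control replicate 2) for mt-Nd4l.

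Complex III is represented by mt-Cytb, which encodes cytochrome b. Its level was 3371, 3449 and 5425 CPM in the control libraries. It was 5909, 5789 and 4036 CPM in the delipidated libraries. Delipidated replicates 1 and 2 were above every control, delipidated replicate 3 was between control replicates 2 and 3, and the groups overlapped. The log2 fold change of 0.36 (standard error 0.20), the largest among the tested protein genes, had an adjusted p of 1.00 in edgeR's quasi-likelihood test and was 0.62 without control replicate 3.

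Complex IV passes electrons to oxygen, and mt-Co1 encodes its catalytic subunit. mt-Co1 had 1718, 1887 and 2719 CPM in the control and 2230, 2454 and 2302 CPM in the delipidated libraries. Control replicate 3 was the highest and the delipidated libraries lay close together within the control range, with a log2 fold change of 0.14 (standard error 0.17), or 0.37, 0.03 and 0.07 without control replicate 3, 1 and 2. Counts of mt-Co2, the subunit that accepts electrons from cytochrome c, were 15, 15 and 10 in the control and 38, 8 and 18 in the delipidated libraries. Its log2 fold change of 0.31 (standard error 1.31) was -0.15 without delipidated replicate 1 and 0.68 without delipidated replicate 2. Counts of mt-Co3, the remaining core subunit, were 1, 4 and 3 in the control and 6, 7 and 1 in the delipidated libraries, too few to be tested. Neither gene separated the groups.

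Complex V makes ATP, and both of its mitochondrial genes were near the limit of detection. Counts of mt-Atp6, which encodes part of the proton channel, were 7, 12 and 17 in the control and 23, 13 and 8 in the delipidated libraries. Its log2 fold change of -0.06 (standard error 1.38) was the only negative one among tested protein genes, and lay between -0.34 (without delipidated replicate 1) and 0.33 (without control replicate 3) with a library left out. Counts of mt-Atp8 were 3, 2 and 8 in the control and 11, 8 and 4 in the delipidated libraries, too few to be tested. The groups overlapped for both genes. The end of mt-Atp8 is read in another frame as the start of mt-Atp6, and counts in these shared bases, between 2 and 9 per library, were given to neither gene. The sequence of mt-Atp8 is shown because it holds the longest overlap among these genes, its 43 bases in mt-Atp6 being in capitals (MT:7766-7969, plus strand, GRCm38).
mt-Atp8: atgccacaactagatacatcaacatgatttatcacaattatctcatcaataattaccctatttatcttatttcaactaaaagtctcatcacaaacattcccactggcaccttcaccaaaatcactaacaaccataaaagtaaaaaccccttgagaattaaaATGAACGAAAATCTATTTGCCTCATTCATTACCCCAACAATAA

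Levels of different genes were compared in counts per base, as means over the 6 libraries with the SD. Outside the genes with few counts, mt-Cytb had the highest value among protein genes, 64.0 ± 25.4, and mt-Nd5 followed with 31.3 ± 9.84. Next came mt-Nd6 with 28.1 ± 8.73. mt-Nd1 and mt-Nd2 were both at 25.6, with SDs of 7.43 and 8.02, ahead of mt-Co1 at 22.1 ± 5.48 and mt-Nd4 at 15.4 ± 4.61. This order holds for reads mapped to a single place, over the full length of each gene. Exact runs of at least 50 bases shared with nuclear transcripts covered 74.9% of mt-Co1 and 63.6% of mt-Nd4. They covered 24.3% of mt-Nd5, 17.2% of mt-Nd2 and 0% of mt-Cytb, mt-Nd6 and mt-Nd1. The SDs include the difference in depth between libraries, and most neighbours in this order did not differ beyond them. Within libraries the order held more tightly: mt-Cytb, mt-Nd5, mt-Nd6, mt-Co1 and mt-Nd4 had the same rank in all 6 libraries, and mt-Nd1 and mt-Nd2 exchanged places. Across the 37 genes, log2 counts per base (with 0.01 added) of any library correlated with those of any other at a Pearson r between 0.961 and 0.995, a description over genes that share precursors.

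Coverage was uneven along the genome. From mt-Ts1 to mt-Nd4l, MT:6870-10173, 11 neighbouring genes had under 2 mean counts per base, between 0.00468 for mt-Co3 and 1.72 for mt-Ts1, while every gene outside had at least 4.90. This bound was set after the values were seen. The stretch holds 6 protein genes (mt-Co2, mt-Atp8, mt-Atp6, mt-Co3, mt-Nd3 and mt-Nd4l) and 5 tRNA genes (mt-Ts1, mt-Td, mt-Tk, mt-Tg and mt-Tr). It covers 21.4% of the bases of the mitochondrial genes. Its share of mitochondrial counts was 0.0301%, 0.0544% and 0.0442% in the control and 0.0486%, 0.0244% and 0.0614% in the delipidated libraries. Both groups showed the stretch and they overlapped in its share. Its neighbours, mt-Co1 and mt-Nd4, had 22.1 and 15.4 mean counts per base.

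**Figure D2:**
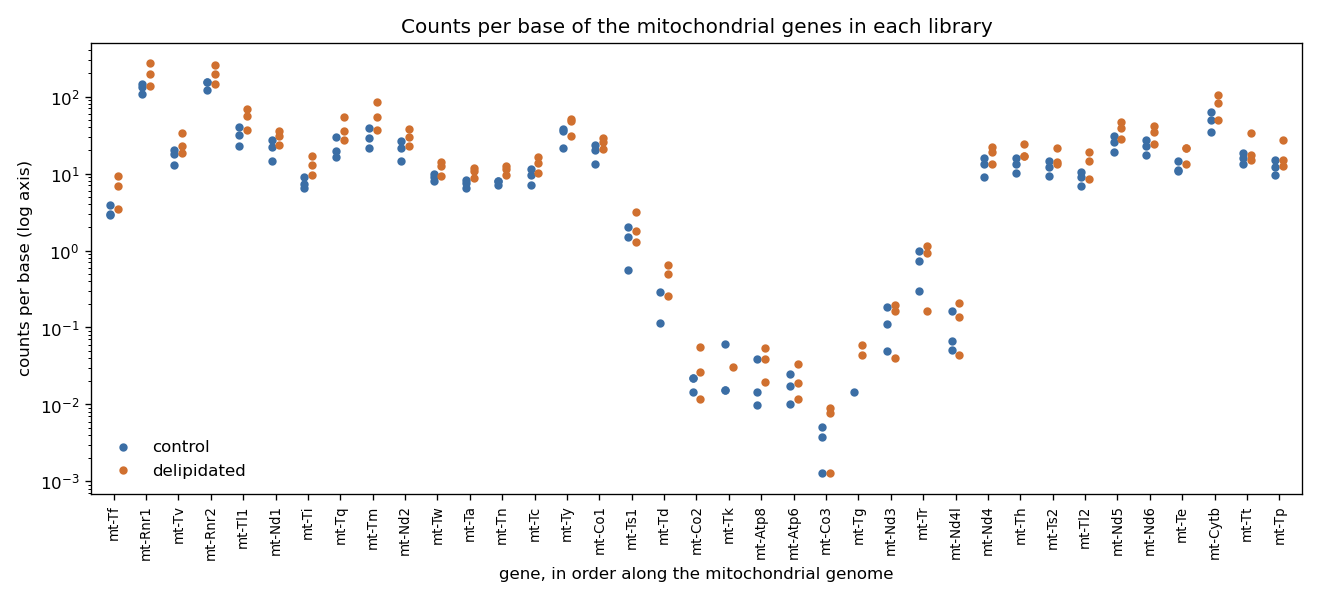
Counts per base on a log axis for the 37 mitochondrial genes in genome order, each point a library (3 control, 3 delipidated, not scaled for depth), with libraries at 0 counts not drawn. The 11 genes from mt-Ts1 to mt-Nd4l lie below the other genes in both groups, and the rRNA genes mt-Rnr1 and mt-Rnr2 are the highest, with means of 165 and 172.

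The authors counted reads that mapped to a single place, and the low stretch has near-identical copies in the nucleus. Of annotated nuclear genes, 15 had a transcript of which at least 50% aligned to a mitochondrial gene, over at least 100 bases and at an identity of at least 90%. Of these, 7 lie together on chromosome 1 at positions 24611535-24616197, minus strand, a span of 4663 bases, with over 99% identity. They copy mt-Co1 in part, mt-Co2, mt-Atp6, mt-Co3, mt-Nd3, mt-Nd4l and part of mt-Nd4, in the order of the mitochondrial genome. Exact runs of at least 50 bases shared with nuclear transcripts covered 100% of mt-Co2, 99.9% of mt-Co3, 99.6% of mt-Atp6, 98.3% of mt-Nd3 and 294 of the 297 bases of mt-Nd4l. In genes with many counts, the covered share was 74.9% for mt-Co1, 63.6% for mt-Nd4, 24.3% for mt-Nd5, 17.2% for mt-Nd2 and 4.11% for mt-Rnr2. The other 27 genes had no such run, mt-Atp8 and all tRNA genes among them. Annotated transcripts alone were searched, so copies between annotated genes were not seen, and the part of these copies in the low counts was not tested.

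Some nuclear copies were assigned more counts than the genes they resemble. Counts of Gm28438, a copy of mt-Nd3, were 1846, 2441 and 2934 in the control and 3526, 2839 and 2190 in the delipidated libraries. Its mean was 60.7 times that of mt-Nd3, and in CPM the groups overlapped. For Gm10222, a copy of mt-Nd4l, they were 513, 578 and 671 in the control and 955, 695 and 410 in the delipidated libraries, with a mean 19.2 times that of mt-Nd4l. For Gm28437, a copy of mt-Co3, they were 252, 383 and 430 in the control and 364, 374 and 268 in the delipidated libraries, with a mean 94.1 times that of mt-Co3. The log2 fold changes of the 3 copies were -0.07, -0.12 and -0.37, with adjusted p-values of 1.00 in edgeR's quasi-likelihood test. Gm28439, a copy of part of mt-Nd4 named after its values were seen, was the only copy to separate the groups, with 5.48, 5.50 and 5.09 CPM in the control and 2.32, 2.33 and 1.98 CPM in the delipidated libraries. Its log2 fold change was -1.27 (standard error 0.74, unadjusted p 0.113, adjusted p 1.00 in the same test). With the copies added, mt-Nd3 and mt-Nd4l had 7.68 and 2.26 mean counts per base and mt-Co3 had 0.445, whereas mt-Co2, with 0.0709, and mt-Atp6, with 0.0482, stayed lower still. Reads of a mitochondrial gene and of its copy cannot be fully told apart. Whether counts assigned to a copy came from nuclear or mitochondrial RNA was not tested.

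Over 345 aligned bases of the reference, mt-Nd3 and Gm28438 differ by the substitution T3C, counted from the first base of mt-Nd3. The base that the mitochondrial genome of these crossed embryos carries there was not examined. The first 63 bases of each are shown because this base is what separates the copies in the reference, and it is in capitals (mt-Nd3 at MT:9459-9521, plus strand, and Gm28438 at chr1:24613057-24613119, minus strand, GRCm38).
mt-Nd3: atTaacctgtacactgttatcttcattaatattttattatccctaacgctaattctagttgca
Gm28438: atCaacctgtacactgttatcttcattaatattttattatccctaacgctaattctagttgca

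The tRNA genes supply the translation of the mitochondrial proteins. Of the 22, 20 were tested, with 19 positive log2 fold changes and 1 negative, a median of 0.28, 1 unadjusted p under 0.05 and 0 called. The genes with the highest mean counts per base were mt-Tm with 44.4, mt-Tl1 with 42.4 and mt-Ty with 37.5. If a read is counted whole in a short gene even when it reaches only a few bases of it, counts per base of short genes are raised. The 2 bases shared by mt-Nd1 and mt-Ti held between 373 and 893 counts per library, against between 454 and 1179 in the rest of mt-Ti. Levels of tRNA genes in CPM may likewise hold reads of their neighbours.

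mt-Tm, the tRNA for methionine, had 125, 122 and 207 CPM in the control libraries. It had 294, 229 and 177 CPM in the delipidated libraries. Delipidated replicate 3 lay below control replicate 3, so the groups overlapped. The log2 fold change was 0.62 (standard error 0.27), and edgeR's quasi-likelihood test gave an unadjusted p of 0.0406, the smallest of the 33 genes tested, and an adjusted p of 1.00. mt-Tl1, a tRNA for leucine that follows mt-Rnr2, had 144, 144 and 226 CPM in the control and 252, 258 and 192 CPM in the delipidated libraries. mt-Ty, the tRNA for tyrosine on the minus strand, had 123, 144 and 194 CPM in the control and 167, 200 and 144 CPM in the delipidated libraries. Both overlapped between groups, with log2 fold changes of 0.45 (standard error 0.24) and 0.15 (standard error 0.24). Without control replicate 3 these were 0.70 and 0.35, and mt-Ty was at 0.02 without control replicate 1 or delipidated replicate 2 and 0.26 without delipidated replicate 3.

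Another 14 tRNA genes outside the low stretch had between 14.7 and 189 CPM and between 4.90 and 30.5 mean counts per base, and all 14 log2 fold changes were positive, from 0.10 to 0.68. Among them, mt-Ti, mt-Tn and mt-Th had every delipidated library above every control library, and they are named after their values were seen. mt-Ti, the tRNA for isoleucine, had 38.3, 37.6 and 38.4 CPM in the control and 58.2, 54.6 and 46.5 CPM in the delipidated libraries. mt-Tn, for asparagine, had 42.9, 34.5 and 43.0 CPM in the control and 44.5, 49.8 and 47.9 CPM in the delipidated libraries. mt-Th, for histidine, had 58.2, 63.6 and 66.9 CPM in the control and 81.2, 70.3 and 79.3 CPM in the delipidated libraries. The unadjusted p-values from edgeR's quasi-likelihood test were 0.116, 0.421 and 0.266, and each adjusted p was 1.00. The 5 tRNA genes of the low stretch had between 0 and 220 counts, and mt-Tk and mt-Tg were not tested.

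The sequences of mt-Ti and of the 3 tRNA genes with the highest counts per base are shown to set the size of these genes beside their counts. Capitals mark bases that also lie in a neighbouring gene, in mt-Ti at its start in mt-Nd1 and at its end in mt-Tq on the other strand, and the others have none. They lie at MT:3706-3774 (mt-Ti), MT:3845-3913 (mt-Tm) and MT:2676-2750 (mt-Tl1) on the plus strand and MT:5260-5326 (mt-Ty) on the minus strand of GRCm38.
mt-Ti: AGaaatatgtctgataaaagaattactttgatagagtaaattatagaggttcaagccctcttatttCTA
mt-Tm: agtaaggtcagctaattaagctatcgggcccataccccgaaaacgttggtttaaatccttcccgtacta
mt-Tl1: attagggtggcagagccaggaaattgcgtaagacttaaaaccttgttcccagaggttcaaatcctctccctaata
mt-Ty: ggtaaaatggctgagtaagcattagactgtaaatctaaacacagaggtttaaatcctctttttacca

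Genes on the minus strand, mt-Nd6 and 8 tRNA genes, held 3.20%, 3.22% and 3.48% of mitochondrial counts in the control and 3.29%, 3.43% and 3.39% in the delipidated libraries. The groups overlapped. The kit kept the strand of the RNA, but the labels do not state whether counting used it. None of the mitochondrial parts covers exactly the same bases as a part of the other strand. Elsewhere in the genome 11 such pairs had at least 10 counts, and in all 11 both strands held equal counts. Reads of either strand may therefore be in the counts of any gene, which touches mt-Nd6, the minus-strand tRNA genes and the share given here.

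Nuclear genes transcribe the mitochondrial genome and process its RNA. Of 10 nuclear genes for mitochondrial transcription, 9 were tested, 7 with a positive and 2 with a negative log2 fold change, a median of 0.30 against 0.00 over all genes, and 0 called. Polrmt, the mitochondrial RNA polymerase, had 56.7, 93.3 and 79.2 CPM in the control and 83.9, 97.4 and 49.3 CPM in the delipidated libraries, with a log2 fold change of 0.01. Tfam, which packages mitochondrial DNA and starts transcription, had 6.24, 6.95 and 10.7 CPM in the control and 15.1, 8.35 and 8.26 CPM in the delipidated libraries. The groups overlapped for both.

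The smallest p-values of this list belonged to Tefm and Mterf3. Tefm, the elongation factor of the polymerase, had 3.63, 6.95 and 3.72 CPM in the control and 19.0, 7.74 and 12.4 CPM in the delipidated libraries. All delipidated libraries lay above the controls, with a log2 fold change of 1.45 (standard error 0.58), an unadjusted p of 0.0295 and an adjusted p of 1.00 in edgeR's quasi-likelihood test. Counts of Mterf3, a regulator of mitochondrial transcription, were 178, 150 and 62 in the control and 564, 231 and 145 in the delipidated libraries, which overlapped (log2 fold change 0.86, standard error 0.57).

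Of 25 nuclear genes for processing and stability of mitochondrial RNA, 24 were tested, 16 with a positive and 8 with a negative log2 fold change, a median of 0.20, and 0 called. Lrpprc, which stabilises mitochondrial mRNAs, had 21.0, 26.9 and 7.07 CPM in the control and 13.7, 20.5 and 30.2 CPM in the delipidated libraries, which overlapped. The smallest p-values belonged to Hsd17b10 and Rexo2. Counts of Hsd17b10, a subunit of mitochondrial RNase P, were 2, 0 and 6 in the control and 63, 60 and 31 in the delipidated libraries. The groups did not overlap (log2 fold change 3.81, standard error 1.49), and the adjusted p in edgeR's quasi-likelihood test was 1.00 (unadjusted 0.0258). Pde12, which trims poly(A) from mitochondrial RNAs and is named after its values were seen, had every delipidated library below every control. Its level was 22.6, 32.1 and 28.6 CPM in the control and 20.2, 19.5 and 17.3 CPM in the delipidated libraries (log2 fold change -0.54, standard error 0.36, unadjusted p 0.155, adjusted p 1.00 in edgeR's quasi-likelihood test). Rexo2, which degrades short RNAs, had 42.9, 31.7 and 42.0 CPM in the control and 47.5, 37.1 and 86.3 CPM in the delipidated libraries, and the groups overlapped.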

How the data were processed

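The counts deposited by the authors, from reads mapped to a single place, were given for 425461 exonic parts in each of 6 libraries and were made according to the submitters' processing notes with Trimmomatic 0.36, STAR 2.5.2b, featureCounts and the build mm10. Parts were summed per gene. Of 43 mitochondrial parts, 6 parts lying in more than 1 gene were left out, with between 0.213% and 0.261% of the mitochondrial counts. Names, exons and transcripts came from GENCODE vM21 (GRCm38), in which 49384 genes were found. Libraries were compared with edgeR 4.0.16 (filterByExpr at its minimum of 10 per library and 15 in total, TMM, quasi-likelihood test, no covariates) in R 4.3.3, with p-values adjusted over all genes. The edgeR, DESeq2 1.42.0 and limma 3.58.1 steps were tested on simulated counts. Nuclear copies were aligned with blastn 2.17.0, and tables were made with Python 3.11.15. Named were all rRNA and protein genes, the 3 tRNA genes with the highest counts per base, the 3 nuclear copies with the highest counts, Polrmt, Tfam and Lrpprc, and the 2 smallest p-values of each nuclear list. Members and lists were chosen with earlier results of these data known.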

Additional observations from a re-analysis of the deposited data

How the results depend on the processing

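The alternatives covered test, normalization, filter, library size, joined identifiers, fold threshold, pairing and each library left out. Called mitochondrial genes and called genes of the nuclear lists numbered 0 under each of them, whereas among all genes with no filter 49 were called by DESeq2's Wald test (9 higher, 40 lower) and 30 by edgeR, against 0 in the filtered fit. Among named mitochondrial genes, with nuclear genes and copies not included, log2 fold changes of the 16 tested kept their sign in 204 of 215 recomputations. The 11 others were of genes with few counts: mt-Co2 at -0.15 without delipidated replicate 1 (range -0.15 to 0.68 with a library left out); mt-Atp6 at 0.33 without control replicate 3, 0.15 without delipidated replicate 3 and 0.0019 with limma-voom (range -0.34 to 0.33); mt-Nd3 at -0.0921 with the replicate block, -0.22 with limma-voom and between -0.37 and 0.43 with a library left out, where -0.29 was without control replicate 1, -0.18 without delipidated replicate 1 and -0.37 without delipidated replicate 3; mt-Nd4l at -0.44 without delipidated replicate 3 and -0.0198 with limma-voom (range -0.44 to 0.77). The difference in rRNA share, -1.27 percentage points, was 0.365 without control replicate 1 and ranged from -3.06 to 0.365 with a library left out. The authors describe a random distribution of embryos and no pairing of same-numbered libraries. Deviations of such libraries from their group means correlated at -0.084, 0.07 and 0.043, and whether they shared a batch was not tested. The replicate block called 0 genes and left the tRNA share difference at 0.239 percentage points (exact sign permutation p = 0.25, the smallest possible). With it, the mitochondrial genes with an unadjusted p under 0.05 in edgeR went from 2 to 0 (2.53% of all genes). Protein genes under 1 mean count per base numbered 6, and 4 with nuclear copies added. The ratio of mt-Rnr2 to mt-Rnr1 was recomputed with each library left out and with the block, settings chosen after seeing the data, and its difference stayed between -0.269 and -0.177. The cause of these changes was not tested. Genes with few counts, such as those of the low stretch, allow no statement on changes of any size near their standard errors.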
